A study of Mus musculus with 6 samples.

Results

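The genes described here are 10 genes of the lysosomal arm of mTOR signalling: Lamtor1, Lamtor2, Lamtor3, Lamtor4 and Lamtor5, which encode the 5 subunits of Ragulator, the Rag GTPase genes Rraga and Rragc, the amino acid transporter gene Slc38a9, the folliculin gene Flcn, and Mtor. They were chosen by pathway and with results of these data in view, because Lamtor4 had been picked out for its large T set ratio of TGF-b over NC. The Lamtor4 values are therefore a description and support nothing by themselves. The 4 deposited tables hold 456310 region entries in all, and 67 of them name 1 of the 10 genes as the nearest gene. These 67 entries cover 41 different T set regions and 9 different S set regions. Of the 10 genes, 9 had a region, against 26742 genes in all, and no region named Lamtor5. A gene without a region has no called region nearest to it in these tables, which does not mean that it had no reads.

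Primary cardiac fibroblasts of the mouse were profiled in 6 libraries by CUT&Tag, a technique in which an antibody brings a transposase to chromatin so that reads gather where the antibody's target sits. The sample names carry a T or an S, and each set of 3 libraries holds NC, TGF-b (the cytokine that drives fibroblasts towards matrix-producing myofibroblasts) and TGF-b with an siRNA, which the treatment labels give as TGF-b+SiTAZ in the T set and TGF-b+SiSRF in the S set. The labels name total RNA as the molecule and a transcriptomic source, against a CUT&Tag kit with DNA extraction in their protocol and a series type of genome binding, and the reads are taken here as CUT&Tag reads. The antibody is not stated in the labels. The study used antibodies to TAZ, a transcriptional co-activator of the Hippo pathway, and to SRF, a factor of muscle and cytoskeletal genes, and T is read as TAZ and S as SRF only by inference. In the study's own text the siRNA of these experiments is directed at Piezo2, and the series' own design text describes deletion of Tet3 by Cre before TGF-b, which no sample label names, so the siRNA target is not stated further. The labels do not spell out NC and give no strain, sex, age, number of animals, dose or time. With 1 library per treatment there is no replicate error and no test, and every difference below is between 2 libraries.

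Ragulator is a scaffold on the lysosomal surface. It holds a heterodimer of Rag GTPases, RagA or RagB with RagC or RagD, and when amino acids are sufficient the Rags bring mTOR complex 1 to the lysosome, where the GTPase Rheb can switch on its kinase. SLC38A9 is a lysosomal amino acid transporter that reports arginine to the Rags, and folliculin acts on RagC and RagD as a GTPase-activating protein. Genes of lysosomes and of this pathway can be bound by TFEB and TFE3, helix-loop-helix factors that recognise an E-box within the so-called CLEAR element. CUT&Tag measures the association of a factor with chromatin, not the transcripts or proteins of these genes.

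The promoters of the members whose start-site regions are described first are printed to show the sequence upstream of these starts. They are the 250 bases before the RefSeq start in GRCm38.p6, matched by gene symbol and written 5' to 3' on the strand of the gene. RefSeq promoters were matched for 9 of the 10 genes, Lamtor3 not among them. Capitals mark matches, on either strand, to the letters searched, an E-box (CACGTG), a CArG box (CC, then 6 bases each A or T, then GG, the element of SRF), an NRF1 half-site (GCGCATG) and an ETS core (CCGGAAG). The Lamtor4 window is chr5:138255232-138255481, the Rragc window chr4:123917183-123917432, the Lamtor1 window chr7:101905587-101905836 and the Mtor window chr4:148448332-148448581, all on the plus strand, and the Lamtor2 window is chr3:88552952-88553201 on the minus strand.
Lamtor4: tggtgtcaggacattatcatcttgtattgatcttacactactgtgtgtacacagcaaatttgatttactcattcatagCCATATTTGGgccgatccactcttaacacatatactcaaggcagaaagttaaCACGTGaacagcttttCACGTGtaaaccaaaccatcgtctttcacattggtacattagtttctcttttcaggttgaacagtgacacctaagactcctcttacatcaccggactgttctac
Rragc: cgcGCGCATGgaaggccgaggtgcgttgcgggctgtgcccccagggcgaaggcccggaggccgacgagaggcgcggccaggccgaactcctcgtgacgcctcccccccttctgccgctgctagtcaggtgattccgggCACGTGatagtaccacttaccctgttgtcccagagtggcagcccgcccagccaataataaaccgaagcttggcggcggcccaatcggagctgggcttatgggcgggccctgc
Lamtor2: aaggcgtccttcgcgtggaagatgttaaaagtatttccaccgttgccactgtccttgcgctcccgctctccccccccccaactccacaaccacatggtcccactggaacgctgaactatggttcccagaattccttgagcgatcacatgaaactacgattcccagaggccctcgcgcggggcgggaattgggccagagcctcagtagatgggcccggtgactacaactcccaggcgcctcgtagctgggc
Lamtor1: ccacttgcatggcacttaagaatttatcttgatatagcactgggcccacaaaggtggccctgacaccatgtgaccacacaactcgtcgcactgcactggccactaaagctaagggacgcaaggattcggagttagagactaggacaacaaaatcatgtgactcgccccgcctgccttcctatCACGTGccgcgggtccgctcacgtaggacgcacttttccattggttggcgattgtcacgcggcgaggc
Mtor: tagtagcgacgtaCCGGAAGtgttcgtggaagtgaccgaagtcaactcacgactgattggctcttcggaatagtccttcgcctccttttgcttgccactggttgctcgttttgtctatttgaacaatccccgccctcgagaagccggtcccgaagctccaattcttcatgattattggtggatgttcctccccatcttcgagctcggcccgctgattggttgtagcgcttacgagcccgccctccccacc

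The Lamtor4 promoter carried 2 E-boxes, at 120 to 115 and at 104 to 99 bases before the start, and a CArG box at 172 to 163 bases before it. At least 2 E-boxes were present in 0.429% of the 32851 RefSeq promoters, and a CArG box in 1.47%. An E-box was also present in Lamtor1, at 68 to 63 bases before the start, and in Rragc, at 112 to 107, so that 3 of the 9 matched members held one, against 6.02% of all promoters. The CArG box was found in 1 of 9 members. The ETS core was found in Mtor and Rraga, 2 of 9 against 6.91%, and the NRF1 half-site in Rragc, 1 of 9 against 3.24%. The TEAD letters GGAATG, which the partners of TAZ recognise, were in 0 of 9 members and in 12.6% of promoters, and the AP-1 letters TGANTCA in 0 of 9 and 6.75%. These are matches of letters in a short window and not measured sites. The Lamtor4 window was poor in GC, at 39.6% with 5 CpG dinucleotides. Rragc had 68.0% GC and 24 CpG, and the median promoter 52.4% and 6.

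Values are given as reads, as normalized read density, and as the log2 ratio of the densities of 2 libraries, the later one of the design over the earlier one. The authors' density is reads plus 1 per kilobase of a 2 kb window, rescaled along a line so that regions called in both libraries centre on 0, and undoing that line returned whole reads, to a tolerance of 0.1, in 99.97% to 99.99% of the regions of a table. The intervals are 95% Wilson intervals of the share of reads, turned into a log2 ratio. They cover counting error only, and reads of a PCR library are not independent molecules. Between 26.8% and 57.9% of the regions of a table had 3 or fewer reads in 1 of its libraries. Of the fixed markers, 5 of 6 fibroblast, 3 of 3 cardiomyocyte, 3 of 3 endothelial and 3 of 3 macrophage genes had a T set region within 3 kb of a transcription start site (TSS). In the S set the counts were 2 of 6, 2 of 3, 1 of 3 and 1 of 3. Association is not expression, so these counts do not check the cell type. In a bulk library, fewer cells with the factor on a gene and less factor per cell cannot be told apart. Coordinates of regions are in GRCm39, the build that fits the deposited positions.

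The subunits of Ragulator differed from one another at their start sites in the T set. Lamtor4, which encodes a subunit of the roadblock-fold heterodimers inside the scaffold, had 1 T set region, at chr5:138253787-138254172 in the 5' UTR, 235 bases after the TSS. NC contributed 1 read to it, TGF-b 45 and TGF-b with siRNA 14. The TGF-b library was high and NC nearly empty, with the siRNA library between them. Normalized density went from 0.959 to 24.0 between these libraries, a log2 ratio of 4.64 (3.09 to 8.14) for TGF-b over NC, or 3.61 with the NC reads set to 3. In the second table, which was normalized on its own, the density was 19.5 in TGF-b and 8.84 with siRNA, a log2 ratio of -1.14 (-2.06 to -0.36). In TGF-b it had more reads than 92.1% of the 28392 regions within 3 kb of a TSS, and in NC more than 4.3%. The annotated start and the RefSeq start of Lamtor4 fell on the same base, so a 2 kb window centred on this region takes in the printed E-boxes and CArG box. The called region itself begins after the TSS, outside the printed bases, and reads are known only for the window as a whole.

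Lamtor2, which encodes the p14 subunit that pairs with Lamtor3, had its main region at chr3:88460258-88460355 in the 5' UTR, 25 bases after the TSS. NC and the siRNA library each gave it 18 reads and TGF-b 47, so that the outer libraries had equal reads. The log2 ratio was 1.35 (0.63 to 2.18) for TGF-b over NC and -0.86 (-1.68 to -0.13) for siRNA over TGF-b, the latter -1.83 after centring on the median. A second Lamtor2 region, 613 bases before the TSS of another transcript, had 9 reads in NC against 3 with TGF-b, at a log2 ratio of -1.16 (-3.20 to 0.35). The start of Ubqln4 lies 734 bases upstream of Lamtor2 on the opposite strand in GENCODE M21, so a 2 kb window here can hold reads of both promoters.

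Lamtor1, the membrane-anchored subunit that wraps around the others, went the other way with TGF-b. Its region, chr7:101554804-101555091, lay 164 bases before the TSS and was called in both libraries of each T set table. Reads numbered 42 in NC, then 24 in TGF-b and 15 with siRNA. The log2 ratio was -0.77 (-1.51 to -0.08) for TGF-b over NC and -0.17 (-1.12 to 0.71) for siRNA over TGF-b, and neither passed 2-fold. After centring on the median of all regions they were -0.12 and -1.15, so that the second then passed 2-fold. The start of Tomt lies 455 bases downstream on the opposite strand.

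Lamtor3, the MP1 subunit, had 6 different T set regions, none with more than 10 reads. The region nearest a start, 413 bases after it, had 5 reads in NC against 0 with TGF-b, 1.32-fold lower with the 0 reads set to the floor of 3. A region annotated as a 3' UTR with no gene named, 6018 bases after the TSS, held 0 reads in TGF-b and 4 with siRNA. With the 0 reads set to 3 it was 1.70-fold higher, a log2 ratio of 0.77 where the median of all regions was 0.97. The other 4 regions lay inside introns of Dapp1, the neighbouring gene, and were assigned to Lamtor3 by its nearest TSS. At 9500 bases NC had 6 reads and TGF-b 1, with a log2 ratio of -1.60 (-5.04 to 0.28). At 11440 bases they were 5 in NC, 2 in TGF-b and 4 with siRNA. At 17491 bases they were 1 in TGF-b and 4 with siRNA, and at 26415 bases 10 and 6. The intervals of all 4 Dapp1 regions held 0. Lamtor3 thus had no T set region with depth like that of Lamtor1, Lamtor2 or Lamtor4.

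**Figure D1:**
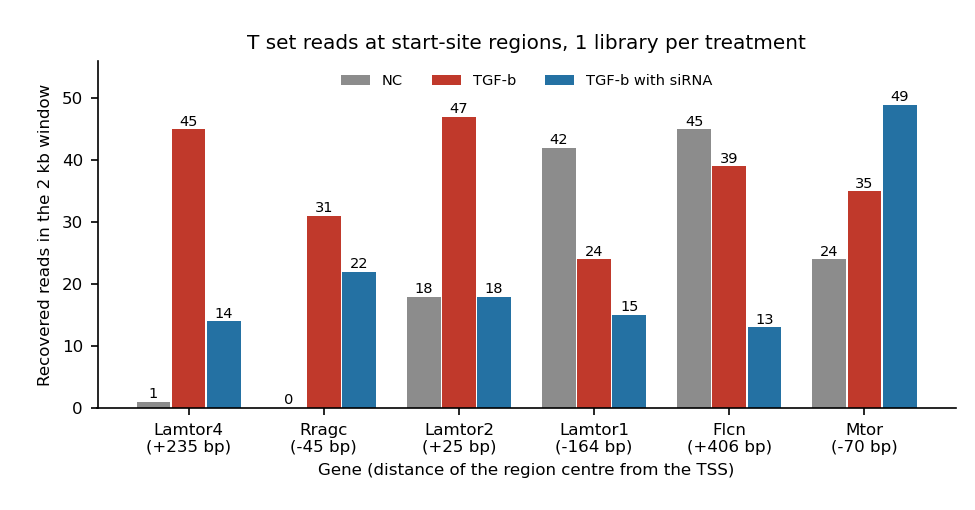
Reads (vertical axis, recovered whole reads per 2 kb window) at the start-site region of 6 genes in the 3 T set libraries, 1 bar per library and no error bars because there are no replicates. Lamtor4 and Rragc have 1 and 0 reads in NC against 45 and 31 in TGF-b, whereas Lamtor1 has 42 in NC and 24 in TGF-b.

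Of the Rag GTPases, Rragc (RagC) had a start-site region much like that of Lamtor4 in NC and TGF-b. The region, chr4:123811048-123811341, lay 45 bases before the TSS and was at 0 reads in NC, 31 in TGF-b and 22 with siRNA. NC was empty, and both TGF-b libraries were high. Like the Lamtor4 region, the Rragc region had been called in TGF-b and not in NC. In the T set, 21 regions of 20 genes within 3 kb of a TSS had at most 1 read in NC and at least 30 in TGF-b. TGF-b was at least 8.61-fold higher than NC against the floor of 3 reads, with listed densities of 0.472 and 17.0. The siRNA library did not differ from TGF-b beyond counting error, with a log2 ratio of -0.00 (-0.80 to 0.76), or -0.97 after centring on the median of all regions. The 13 bases between the annotated and the RefSeq start leave the printed E-box within a window centred on this region. The transcript 4930535I16Rik starts 576 bases downstream of the Rragc start on the opposite strand.

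The 2 other T set regions of Rragc lay in intron 5. One was at 4 reads in NC, 5 in TGF-b and 0 with siRNA, and the other at 12 against 3 for NC and TGF-b, a log2 ratio of -1.55 (-3.57 to -0.13). Only the deeper of these intron regions was low in TGF-b, and after centring its ratio was -0.90, short of 2-fold. Rraga (RagA), whose product pairs with RagC, had a single region, chr4:86500090-86500156, assigned to it by the nearest TSS, 6218 bases away, and annotated as a 3' UTR of an unnamed gene. The reads were 0 in TGF-b and 4 with siRNA. With the 0 reads set to 3 this was 1.70-fold higher, a log2 ratio of 0.77 where the median of all regions was 0.97. No T set region lay at the start of Rraga.

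By a rule that compared log2 of reads plus 1 over the 3 T set libraries among 12797 regions (10278 genes) within 3 kb of a TSS that are in both tables, 3 genes had the profile most like Lamtor4. These were Amot, which encodes a binding partner of YAP and TAZ, at chrX:144288969-144289141, with 1, 43 and 17 reads in NC, TGF-b and siRNA (distance 0.27), Gid4, a substrate receptor of a ubiquitin ligase, at chr11:60307810-60308092, with 1, 36 and 14 reads (0.31), and Cad, the enzyme that starts pyrimidine synthesis, at chr5:31212070-31212296, with 1, 35 and 16 reads (0.40). The likeness to Lamtor4 in these reads is what the rule selected.

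Slc38a9 was the member with the most T set regions in TGF-b and NC, with 9. By listed ratio, 5 were at least 2-fold lower in TGF-b, 2 were at least 2-fold higher and 2 lay between, where 42.1% of all regions were lower and 17.3% higher. The lower ones had been called in NC only and the higher ones in TGF-b only. Of the 5, the region at 868 bases was only 1.55-fold lower with its 0 reads set to 3. The start-site region, chr13:112797400-112797509, 143 bases after the TSS, had 21 reads in NC against 6 with TGF-b, at a log2 ratio of -1.55 (-2.98 to -0.44). In intron 1, 3206 bases after the TSS, the reads were 19 and 3, a log2 ratio of -2.19 (-4.20 to -0.87). Both were low in TGF-b, though centring took the start-site ratio to -0.90, short of 2-fold, and that of intron 1 to -1.54. A region in intron 2 was at 11 reads in NC, 16 in TGF-b and 10 with siRNA, a log2 ratio of 0.59 (-0.46 to 1.71) and then -0.16 (-1.33 to 0.90). Centring took these to 1.24 and -1.14.

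Intron 10 of Slc38a9 held neighbouring regions that differed in direction. Between NC and TGF-b, each had been called only in the library in which it was higher. Calls and ratios come from the same reads. At chr13:112843058-112843221 the reads were 58 in NC, 9 in TGF-b and 38 with siRNA, so TGF-b was the low library. The log2 ratio was -2.52 (-3.64 to -1.66) for TGF-b over NC and 2.43 (1.52 to 3.57) for siRNA over TGF-b. At chr13:112848286-112848623 the reads were 2, 15 and 36, with a log2 ratio of 2.57 (1.09 to 5.03) and then 1.68 (0.88 to 2.59), so the order was NC, TGF-b, siRNA from low to high. The next region, whose window overlaps that one, held 13 reads in TGF-b and 36 with siRNA. About 1 kb further on, at chr13:112849815-112849910, NC had 16 reads and TGF-b 0, which is 3.87-fold lower with the 0 reads set to 3. Of the shallower regions, that at 868 bases before the TSS of another transcript had 6 reads in NC and 0 in TGF-b, 1.55-fold lower with the 0 reads set to 3. In intron 11 the reads were 2 in NC, 4 in TGF-b and 0 with siRNA. In intron 14 they were 0, 8 and 2, with TGF-b 2.52-fold higher than NC once the 0 reads were set to 3. In intron 7 they were 4 in TGF-b and 10 with siRNA, a log2 ratio of 1.59 (0.19 to 3.37).

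Flcn had T set regions around its start that overlapped in their windows. At chr11:59699903-59700114, 406 bases after the TSS, the reads were 45 in NC, 39 in TGF-b and 13 with siRNA. NC and TGF-b did not differ beyond counting error, with a log2 ratio of -0.22 (-0.84 to 0.39), or 0.44 after centring on the median. The siRNA library was lower than TGF-b, with a log2 ratio of -1.04 (-2.00 to -0.22), or -2.01 after centring. The region at chr11:59700639-59700713, 74 bases after a TSS in the 5' UTR, had 44 reads in NC against 37 with TGF-b, at a log2 ratio of -0.26 (-0.89 to 0.36).

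Mtor, the kinase gene, had 3 start-site regions in the T set whose 2 kb windows overlap, so that they share reads. At chr4:148532867-148533129, 70 bases before the TSS and called in both libraries of each table, the reads were 24 in NC, 35 in TGF-b and 49 with siRNA. The order of the libraries was thus NC, TGF-b, siRNA, which is not that of Lamtor4 or Lamtor2. The log2 ratio was 0.54 (-0.18 to 1.30) for TGF-b over NC and 0.95 (0.34 to 1.59) for siRNA over TGF-b. The second ratio was -0.02 after centring on the median of all regions, so its direction rests on the scaling. The regions at 280 bases before and 487 bases after a TSS had 34 and 35 reads in TGF-b and 49 with siRNA each.

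Within the body of Mtor, the regions called in NC had fewer reads in TGF-b, and most of those called in the siRNA library had fewer in TGF-b. Calls come from the same reads, and 59.2% of all regions called in NC only were at least 2-fold lower in TGF-b. Of all those called in the siRNA library only, 67.6% were at least 2-fold higher with siRNA. In exon 8 NC had 14 reads and TGF-b 2, a log2 ratio of -2.17 (-4.63 to -0.67). In exon 12 they were 8 and 5, and in intron 19 they were 15 and 8, with intervals that held 0. In intron 16 they were 10 in NC, 9 in TGF-b and 3 with siRNA. Against TGF-b, 6 of the 11 Mtor regions exceeded 2-fold upwards with siRNA and 0 downwards, where 49.7% of all regions of the table did so upwards and 16.2% downwards. After centring, the intron 31 and intron 36 regions fell short of 2-fold, at 0.32 and 0.21. The intron 16 and intron 17 regions, whose windows overlap, then passed 2-fold downwards, both at -1.84. In exon 2 of a short transcript the reads were 1 in TGF-b and 14 with siRNA, a log2 ratio of 3.36 (1.68 to 6.83). In intron 6 they were 4 and 17, a log2 ratio of 2.31 (1.04 to 4.05), and in intron 31 they were 12 and 22, a log2 ratio of 1.29 (0.35 to 2.34). These 3 were each called in the siRNA library only. The remaining Mtor regions were shallow, with 1 and 7 reads in intron 13, 2 and 4 in intron 36, 0 and 5 in exon 47 (2.05-fold higher with the 0 reads set to 3) and 9 and 3 in intron 17.

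**Figure D2:**
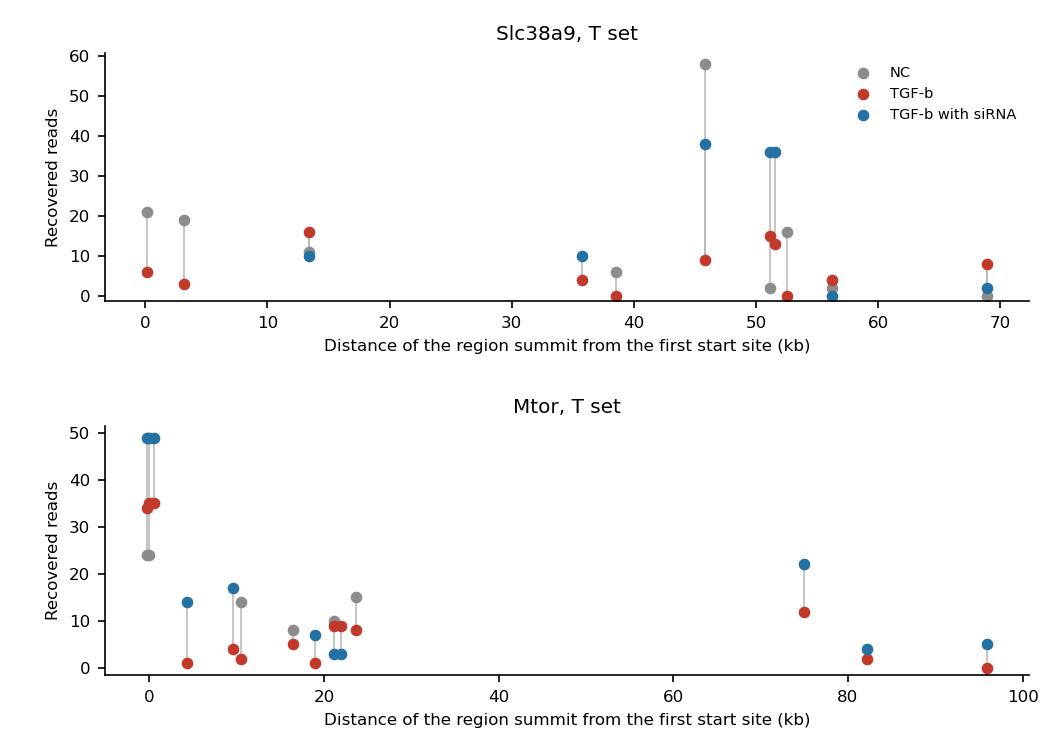
Reads (vertical axis) of the T set regions of Slc38a9 and Mtor against the distance of each region from the first start site in kilobases (horizontal axis), 1 point per library, with a grey line joining the libraries of a region. Slc38a9 has 58, 9 and 38 reads in NC, TGF-b and siRNA in intron 10, and Mtor has its highest reads, 24, 35 and 49, at the start site.

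Over the 27 T set regions of 8 members in the table of TGF-b and NC, 5 were at least 2-fold higher in TGF-b, 10 were at least 2-fold lower and 12 lay between. Of all 170890 regions of that table, 17.3% were at least 2-fold higher and 42.1% at least 2-fold lower, shares near those of the members. With reads of 3 or fewer set to 3, 5 member regions were higher and 7 lower. The median log2 ratio was -0.44 for the members and -0.65 for all regions. Centring on that median gave 10 member regions higher and 6 lower, the added ones being both Mtor promoter regions, intron regions of Slc38a9 (2) and a Rragc intron region. Those it took out of the lower ones were the start of Slc38a9, the Rragc intron region with 12 and 3 reads, Lamtor2 at 613 bases and Lamtor3 at 9500 bases. The shares of all regions were not computed after centring, so the centred counts have no background beside them. Of the 12 member regions within 3 kb of a TSS, 3 were higher (Lamtor2, Lamtor4 and Rragc) and 4 lower, against 19.2% and 29.2% of the 28392 such regions, with medians of -0.24 and -0.18. Of the 4, Lamtor3 at 413 bases and Slc38a9 at 868 bases were short of 2-fold with their 0 reads set to 3. Over the start-site region of each of the 8 genes, the median was 0.16. Because the 2 kb windows overlap, the 27 regions make 21 separate windows. The interval lay above 0 in 5 of the 27 regions, below 0 in 9 and held 0 in 13, and 14 had 3 or fewer reads in a library.

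In the table of siRNA and TGF-b, the 29 T set regions of 9 members held 14 at least 2-fold higher with siRNA, 5 at least 2-fold lower and 10 between. The higher ones belonged to Lamtor3, Rraga, Slc38a9 and Mtor, and the lower ones to Lamtor4, Rragc, Slc38a9 and Flcn. Of all 180118 regions, 49.7% were at least 2-fold higher and 16.2% at least 2-fold lower, so these shares were also near the background. These calls use the listed ratios. With reads of 3 or fewer set to 3, 9 member regions were higher and 2 (Lamtor4 and Flcn) lower, and no region of Lamtor3, Rraga or Rragc passed 2-fold. The median was 0.99 for the members and 0.97 for all regions, and centring turned the split into 7 higher and 11 lower. It took out of the higher ones 2 Lamtor3 regions in Dapp1, 3 Slc38a9 regions (intron 7 and the overlapping pair in intron 10) and the intron 31 and intron 36 regions of Mtor. Here too, no share of all regions was computed after centring. Within 3 kb of a TSS, 1 of 9 member regions was higher and 2 (Lamtor4 and Flcn) were lower, against 34.5% and 19.6% of 27754 regions, with medians of -0.00 and 0.33. The single higher one was the exon 47 region of Mtor, beside the start of a short transcript. The 29 regions make 25 separate windows. The interval lay above 0 in 14 of the 29 regions, below 0 in 3 and held 0 in 12.

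**Figure D3:**
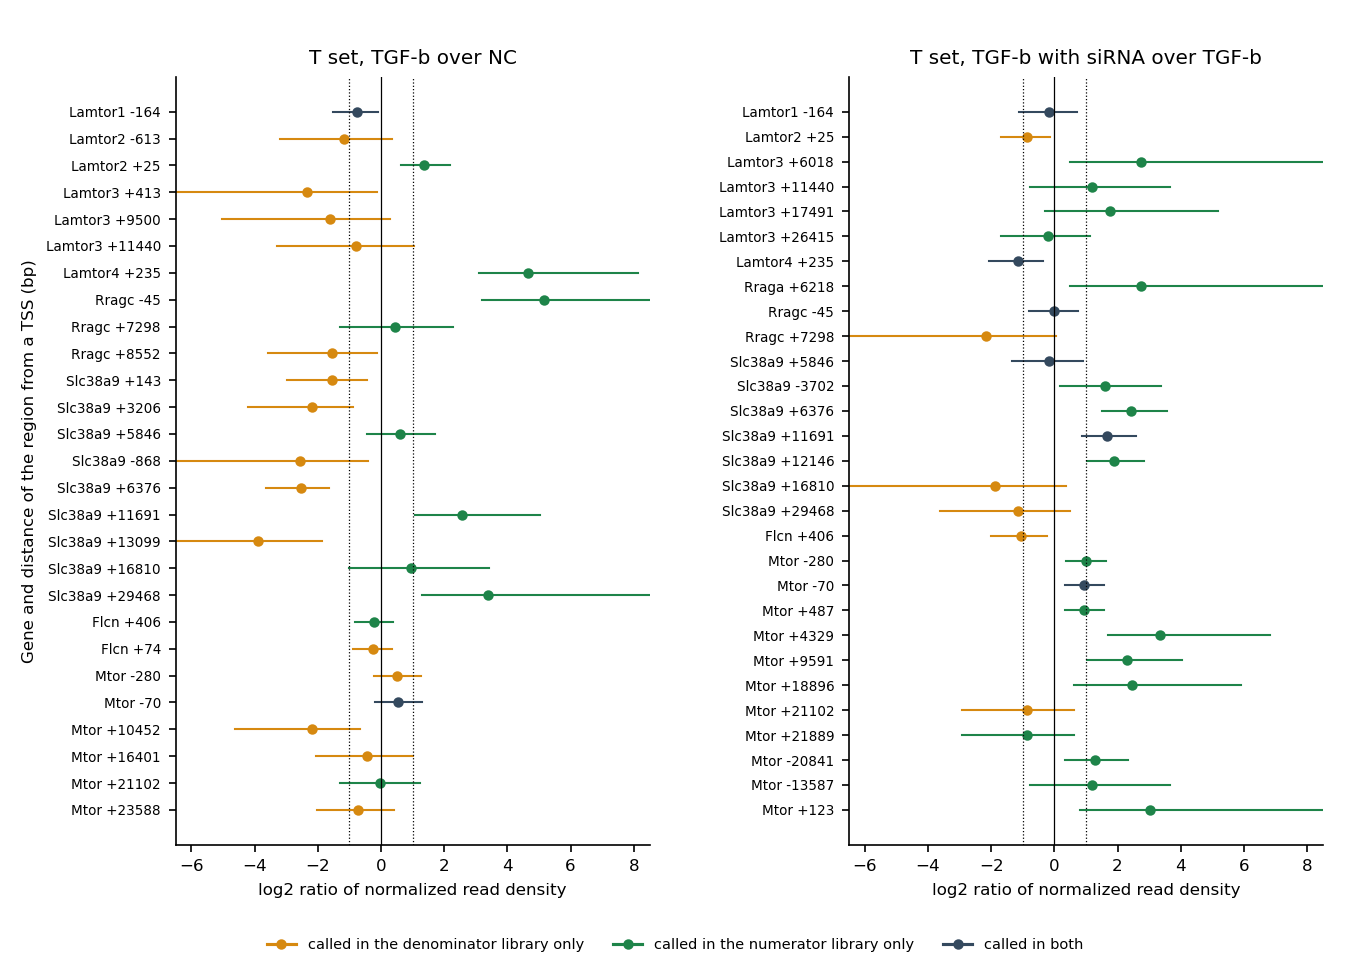
Log2 ratio of normalized read density (horizontal axis) of every T set member region, named by gene and distance from a TSS in bases, for TGF-b over NC and for siRNA over TGF-b. Points are the ratios, lines the 95% counting intervals (cut at the frame where a library has few or 0 reads), dotted lines mark 2-fold, and the colour gives the library in which the region was called; Lamtor4 lies at 4.64 and then at -1.14.

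The T set member regions past 2-fold that had been called in 1 library only were higher in that library. Of the 15 called in NC only, 10 were at least 2-fold lower in TGF-b and 0 higher, and of the 10 called in TGF-b only, 5 were higher and 0 lower. Among all regions called in NC only, 59.2% were lower, and among those called in TGF-b only, 59.7% were higher. Of the 17 called in the siRNA library only, 13 were higher with siRNA (67.6% of all such regions), and of the 6 called in TGF-b only, 4 were lower with siRNA (58.5%). Regions short of 2-fold included exceptions, such as the Mtor region 280 bases before the TSS, called in NC only with a log2 ratio of 0.50, and the intron 17 region of Mtor, called in the siRNA library only with -0.87. Of the 2 called in both NC and TGF-b, at Lamtor1 and Mtor, 0 passed 2-fold. Of the 6 called in both TGF-b and siRNA libraries, 1 was higher (Slc38a9, intron 10) and 1 lower (Lamtor4), where 12.8% and 11.7% of all such regions were. In the S set, the 2 member regions called in TGF-b and not in NC held 1 higher and 1 lower, the latter being Lamtor4 at 4272 bases, which was lower in the library in which it had been called. Calls and ratios come from the same reads, and these counts are no separate measure.

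Across the 2 T set tables, 15 member regions of 8 genes joined, with identical ends and with the same TGF-b reads recovered from both tables. Of the 5 whose TGF-b value exceeded NC by 2-fold or more, 2 were at least 2-fold lower with siRNA by listed ratio (Lamtor4 and the intron 14 region of Slc38a9) and 1 was higher again (Slc38a9, intron 10). The other 2 of the 5 were Lamtor2 and Rragc. The intron 14 region had 8 and 2 reads and an interval (-3.61 to 0.51) that held 0. With its 2 reads set to 3 it was 1.65-fold lower. After centring, 10 of the 15 regions were at least 2-fold higher in TGF-b, and of these 6 were at least 2-fold lower with siRNA and 0 higher again. Those added to the 6 were Lamtor2 (-1.83 with siRNA), the intron 2 region of Slc38a9 (-1.14), and the intron 11 region of Slc38a9 and the intron 5 region of Rragc, which went from 4 and 5 reads in TGF-b to 0 with siRNA, too few for a fold, while the intron 10 region of Slc38a9 went to 0.71. The 1 that was at least 2-fold lower in TGF-b, also in intron 10 of Slc38a9, was higher with siRNA. The tables share the TGF-b library, so a high or low reading of it alone sets the 2 ratios in opposite directions, and these counts describe the 3 libraries only. They were not made over all joined regions, so no background share stands beside them.

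In the S set, the members had few regions and few reads. The table of TGF-b and NC held 4 regions of 4 members, of which 1 was at least 2-fold higher in TGF-b and 1 at least 2-fold lower. Of all 52723 regions, 17.4% were higher and 26.7% lower, and the median of -0.20 was the same for the members and for all regions. Centring on it left 1 higher and 0 lower. Within 3 kb of a TSS there were 2 member regions and 0 passed 2-fold, against 22.0% higher and 16.7% lower of 7750 regions. In the table of siRNA and TGF-b, 7 regions of 4 members held 3 at least 2-fold higher with siRNA and 0 lower, against 15.1% and 27.8% of 52579 regions, or 5 higher after centring. The centred counts of the S set likewise have no background share. Within 3 kb of a TSS, 2 of 4 were higher (1 each at Lamtor3 and Lamtor4) and 0 lower, against 14.5% and 16.0% of 9583 regions. The interval lay above 0 in only 1 of the 7, at Lamtor4.

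Lamtor4 had 2 regions in the S set. The one at its start, chr5:138253850-138254056, 209 bases after the TSS and inside the T set region, held 12 reads in TGF-b and 24 with siRNA, a log2 ratio of 1.01 (0.09 to 2.05). It had been called in the siRNA library only. The table of TGF-b and NC held no region there, so the NC reads are not known. The other, chr5:138249388-138249557, lay 4272 bases before the TSS in the last exon of Nxpe5, and was at 21 reads in NC, 15 in TGF-b and 7 with siRNA. Its log2 ratio was -1.01 (-1.98 to -0.10) for TGF-b over NC and -0.90 (-2.26 to 0.25) for siRNA over TGF-b. At the start of Lamtor4 the siRNA library was thus higher than TGF-b in the S set and lower in the T set, where the ratio was -1.14, and that contrast between the sets carries no test. The labels name a different siRNA in each set.

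The Mtor promoter had an S set region at chr4:148532839-148532920 that overlaps the T set one, with 14 reads in NC and 17 in TGF-b. Its log2 ratio was -0.30 (-1.28 to 0.72) as normalized and 0.26 without the authors' line, so no direction can be given. A region in intron 33 of Mtor held 3 reads in TGF-b and 7 with siRNA. Lamtor3 had 2 S set regions near starts, with 7 and 15 reads in TGF-b and siRNA at 378 bases, a log2 ratio of 1.10 (-0.06 to 2.45), and 4 and 8 reads at 198 bases, a log2 ratio of 0.98 (-0.51 to 2.77). Rragc had a region in its last intron, 12835 bases after a TSS, where NC had 1 read, TGF-b 9 and the siRNA library 6, and a log2 ratio of 1.71 (-0.05 to 5.17) for TGF-b over NC. A second one, 475 bases before the TSS of a shorter transcript, had 4 reads in TGF-b and 7 with siRNA. Slc38a9 had 4 reads in NC and 6 in TGF-b in intron 7. Lamtor1, Lamtor2, Rraga and Flcn had no S set region.

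**Figure D4:**
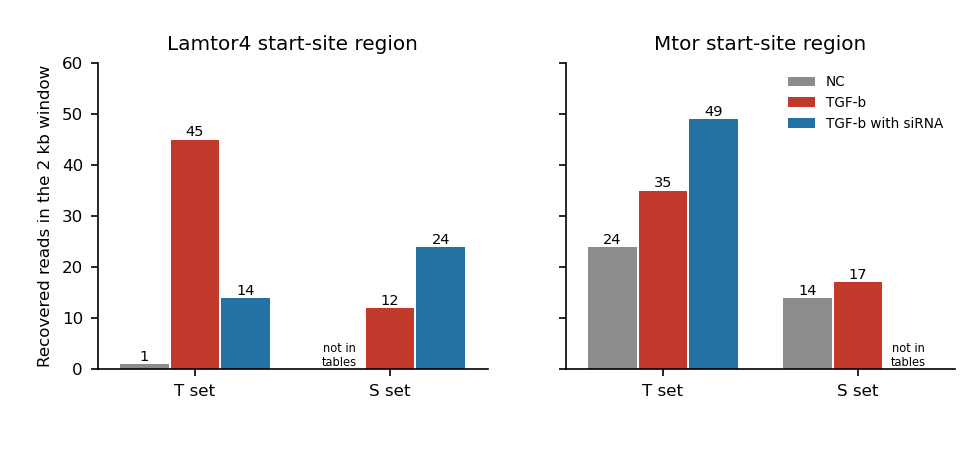
Reads (vertical axis) at the start-site regions of Lamtor4 and Mtor in the T set and the S set, 1 bar per library. At Lamtor4 the siRNA bar is below the TGF-b bar in the T set (14 against 45) and above it in the S set (24 against 12), and libraries with no region in a table are marked as not in the tables.

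**Figure D5:**
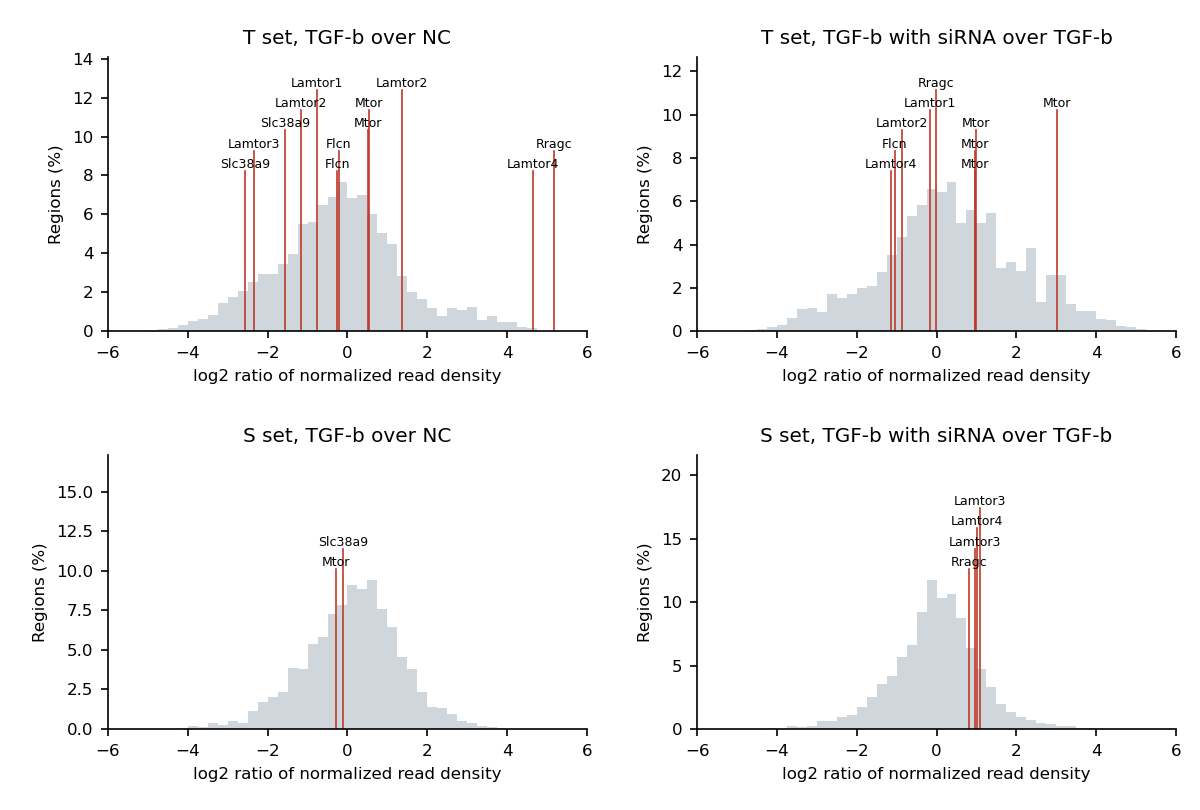
Share of regions within 3 kb of a TSS (vertical axis, percent) by log2 ratio of normalized read density (horizontal axis, values beyond 6 either way drawn at the edge) in each of the 4 tables, with red lines for the member regions, whose heights only separate the names. In the T set, the Lamtor4 line for TGF-b over NC stands at 4.64, the value for which it was picked out, and the Rragc line is drawn from the listed densities with 0 reads in NC, so only its bound of at least 8.61-fold can be read.

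The wider pathway was described with a list of 50 further genes of mTOR complexes, Rag partners, GATOR1, GATOR2, KICSTOR, nutrient sensors, the TSC complex with Rheb, downstream factors and the lysosomal membrane. For each gene the strongest region within 3 kb of a TSS was taken, or else the nearest. In the T set, 44 of the 50 had a region in the table of TGF-b and NC, and 7 were at least 2-fold higher in TGF-b and 7 lower, with a median log2 ratio of 0.15, where 19.2% of all regions within 3 kb of a TSS were higher and 29.2% lower, with a median of -0.18. With siRNA over TGF-b, 46 had a region, 8 were higher and 12 lower, with a median of -0.29, against 34.5% higher, 19.6% lower and 0.33. In the S set the counts for TGF-b over NC were 5 higher and 4 lower of 32 (median -0.06), against 22.0%, 16.7% and 0.20. For siRNA over TGF-b they were 2 higher and 5 lower of 31 (median -0.01), against 14.5%, 16.0% and 0.05. These shares cover every region within 3 kb, shallow ones included, whereas the list takes 1 strong region per gene and for some genes 1 farther away, so they are not like for like. The counts also rest on the authors' scaling and were not made after centring. In the T set the median of all regions was -0.65 for TGF-b over NC and 0.97 for siRNA over TGF-b. Centring thus raises the former ratios and lowers the latter.

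Of that list, Sesn1, which encodes a leucine-sensing inhibitor of the pathway, had the highest T set ratio of TGF-b over NC among genes with at least 10 reads summed, with 25 and 95 reads and a log2 ratio of 1.86 (1.27 to 2.53). It was followed by Tsc2, a brake on Rheb, with 6 and 16 reads (1.39, 0.22 to 2.83), and Tfe3, with 16 and 36 reads (1.16, 0.37 to 2.04). The lowest were Tsc1, the partner of Tsc2, with 17 and 5 reads (-1.47, -3.04 to -0.27), Kics2, a KICSTOR subunit, with 28 and 9 (-1.47, -2.63 to -0.51), and Atp6v0c, a V-ATPase subunit, with 27 and 10 (-1.28, -2.39 to -0.34). Centred on the median of all regions, these 3 went to -0.82, -0.81 and -0.63, short of 2-fold. For siRNA over TGF-b, the 3 highest included Depdc5, a GATOR1 subunit, with 8 and 19 reads (1.62, 0.55 to 2.87) and Tsc2 with 12 and 25 (1.47, 0.55 to 2.50), which centring took to 0.64 and 0.50, short of 2-fold. By listed ratio the lowest were Sec13, with 10 reads and 0 (2.01-fold lower with the 0 reads set to 3), Rictor, with 32 and 4 (-2.26, -3.98 to -1.10), and Mapkap1, with 25 and 3 (-2.24, -4.24 to -0.96). Sec13 is among them only through its 0 reads, and Eif4ebp1, a translation repressor gene, had 51 and 8 (-2.06, -3.25 to -1.15). The Mapkap1 region lay 5 bases from a TSS and the Rictor region 13625 bases from one, in an intron. For TGF-b over NC, the Tsc2 and Tsc1 regions were annotated as 3' UTR, 2768 and 4050 bases from a TSS. For some of these genes, Tsc2, Depdc5 and Rictor among them, the regions in the 2 tables are different ones.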

How the data were processed

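The 6 libraries were measured by CUT&Tag. In the methods of the study the authors used Bowtie2 for alignment to GRCm39 and a peak caller written as Masc2; the submitters' processing notes name mm10 and BWA 0.7.12. Scaffold names and positions fit GRCm39. The authors deposited 4 tables, each over the peaks of 2 libraries, with a signal (normalized read density) per library, the class, nearest gene, annotation and distance to a TSS. Their columns of fold changes and p-values were not used, and 0 columns of per-sample values were left unmapped. From the densities, log2 ratios were computed, whole reads recovered and Wilson 95% intervals made (Python 3.11.15, numpy 2.4.6, pandas 2.3.3, matplotlib 3.10.9), and the scripts were tested on simulated data. Tables were normalized separately and used separately. The threshold was 2-fold and the floor 3 reads. Counts past 2-fold use the listed ratios, and a fold with reads set to 3 is not a limit of its counting interval. Library totals were not used, so the depth is that of each region. Regions of different tables were joined by an overlap of 1 bp.

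The members and lists were chosen with earlier results of these data known. Named genes were all members, the 3 highest and 3 lowest genes of the pathway list in each T set table among those with at least 10 reads summed, and the 3 genes with the T set profile nearest to Lamtor4; Eif4ebp1 was named in addition, after its values were seen, and 1 gene that the rule names is not reported here. Alternatives were thresholds of 1.5-fold and 4-fold, centring on the median, omission of the authors' line, reads of 3 or fewer set to 3, at least 10 reads summed, regions within 1 kb of a TSS, and an overlap of 50%. Centring of the joined regions and of the named pathway genes was chosen after seeing the data.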

Additional observations from a re-analysis of the deposited data

Results flagged for a closer look

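The Lamtor4 start-site region was singled out because the T set and the S set went in opposite directions. For siRNA over TGF-b, the log2 ratio of the T set was -1.14 (45 and 14 reads) and that of the S set 1.01 (12 and 24 reads), a difference of -2.15. Without the authors' line the ratios were -1.62 and 0.94, and after centring on the median -2.11 and 1.22. The S set region had been called in the siRNA library only, so it entered the table through the library in which it is high, whereas the T set region had been called in both libraries. The labels give the siRNA as SiTAZ in the T set and SiSRF in the S set, so the ratios need not describe the same treatment. The difference was not tested, since each value comes from 1 library per treatment.

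The Mtor promoter region was singled out in the same way for TGF-b over NC, with a log2 ratio of 0.54 in the T set (24 and 35 reads) and -0.30 in the S set (14 and 17 reads), a difference of 0.84. Both intervals held 0, the S set value was 0.26 without the authors' line, and the difference was not tested.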

How the results depend on the processing

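Over the alternatives, 27 counts of member regions stayed within 1.5 times their value and 29 did not. Of the ratios of single member regions, 106 stayed within their counting interval, 9 left it and 1, past 2-fold, reversed. The medians over members have no such interval, and centring took that of siRNA over TGF-b in the T set from -0.00 to -0.97. Ratios short of 2-fold changed sign as well. Centred, T set Flcn went to 0.44 (TGF-b over NC) and Mtor to -0.02 (siRNA over TGF-b), and S set Slc38a9 to 0.08 (TGF-b over NC). Without the authors' line, TGF-b over NC in the S set went to 0.49 at Slc38a9 and 0.26 at Mtor, and the median over members from -0.20 to 0.37. Within 1 kb of a TSS, other regions took the place of the S set ones of Lamtor4 (-0.90 to 1.01) and Rragc (-0.40 to 0.81) for siRNA over TGF-b. At 1.5-fold, siRNA over TGF-b gave 8 lower member regions in the T set and 5 higher and 1 lower in the S set. At 4-fold, TGF-b over NC gave 6 lower in the T set and 0 higher and 0 lower in the S set, and siRNA over TGF-b gave 7 higher and 1 lower in the T set and 0 higher in the S set. Centred on the median, the T set had 10 higher and 6 lower for TGF-b over NC and 7 higher and 11 lower for siRNA over TGF-b, and the S set had 0 lower and then 5 higher. Without the authors' line, siRNA over TGF-b had 8 lower in the T set and 1 lower in the S set, and TGF-b over NC had 0 lower in the S set. With reads of 3 or fewer set to 3, siRNA over TGF-b had 9 higher and 2 lower in the T set, and TGF-b over NC had 0 higher in the S set. With at least 10 reads summed, siRNA over TGF-b had 7 higher and 3 lower in the T set, and the Lamtor3 ratio reversed from 2.76 to -0.20 because another region took its place. Within 1 kb of a TSS, fewer regions were counted, with 3 higher and 4 lower and then 1 higher and 2 lower in the T set, and 0 and 0 for TGF-b over NC in the S set. For the centring and the line the cause was not tested. No member region past 2-fold changed sign by centring or without the line. An overlap of 50% left the number of members whose main region is in both tables unchanged (6 T set, 2 S set). No paired analysis was possible because each group holds 1 library, and for the same reason no library could be left out. Few reads limit many regions, since a ratio with 3 or fewer in a library is known only within several-fold.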
